A study of Mus musculus with 6 samples.

Results

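The 10 genes described here are the proteases and surface markers of mast cells: Mcpt1, Mcpt2, Mcpt4, Mcpt8, Mcpt9, Cma1, Cpa3, Tpsb2, Kit and Fcer1a. They were taken by gene ID from a table of 24415 genes counted by RNA sequencing in inguinal white adipose tissue, the subcutaneous fat pad of the groin, and all 10 were in the table. The samples were 3 WT and 3 Hsp20 KO mice, all C57BL/6, 12 weeks old and not fasted, with 1 library per mouse. Hspb6 encodes Hsp20, a small heat shock protein, and the sources used here do not give how the allele was inactivated. The genes were chosen by what mast cells are known to express and with the counts of Mcpt2 in these same 6 libraries already seen, so they were selected on the contrast described, and their values carry no test.

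Mast cells are tissue-resident immune cells whose granules hold histamine, heparin and large amounts of proteases. The proteases are chymases (Mcpt1, Mcpt2, Mcpt4, Mcpt9 and the chymase-like Cma1), tryptases (Tpsb2) and carboxypeptidase A3 (Cpa3). In mice, connective tissue mast cells are known for Mcpt4, Cma1, Tpsb2 and Cpa3, while mucosal mast cells, which form under TGF-beta, are known for Mcpt1 and Mcpt2. Mcpt8 marks basophils. Kit is the receptor for stem cell factor, on which mast cells depend, and Fcer1a is the alpha chain of the high-affinity IgE receptor.

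The libraries held between 14078936 counts (knockout replicate 3) and 32648746 counts (WT replicate 3). Fat cell transcripts were abundant in all 6, with Adipoq between 1036 and 1807 CPM and Plin1 between 894 and 1532 CPM, where CPM is the count divided by the library total in units of 1e+06 counts, after scaling the libraries to each other. Hspb6, the targeted gene, stood at 8.95 to 12.6 CPM in WT, at 1.51 and 3.94 CPM in the libraries labelled knockout replicates 2 and 3, and at 8.86 CPM in the one labelled knockout replicate 1. That library therefore goes against its label at the targeted gene, and values are given with and without it. In whole tissue, fewer mast cells and less RNA per mast cell cannot be told apart.

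The fat pad of WT mice held the protease set of connective tissue mast cells, and the libraries labelled knockout also held 2 further chymases, Mcpt2 and Mcpt9. Mcpt2 went from 0, 0 and 3 counts in WT replicates 1 to 3 to 266, 119 and 46 counts in the libraries labelled knockout. Mcpt9 went from 2, 1 and 4 counts to 35, 20 and 14. The other mucosal chymase, Mcpt1, was at or near 0 in every library. The connective tissue proteases Mcpt4, Cma1, Cpa3 and Tpsb2 overlapped between the groups, but only through the library labelled knockout replicate 1. In those labelled replicates 2 and 3 each of these proteases was below every WT library. The balance of these proteases differed, with less Tpsb2 and more Cma1 for each count of Cpa3 in all 3 libraries labelled knockout. In CPM the groups did not overlap for 32.5% of all genes tested, and this share was not computed for ratios to Cpa3.

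Mcpt2 (gene ID 17225) is a mucosal chymase gene on the plus strand of chromosome 14 at 56021584 to 56044635 on GRCm38. It was listed at 0, 0 and 0.0907 CPM in WT replicates 1 to 3, and at 9.62, 5.45 and 3.42 CPM in the libraries labelled knockout replicates 1 to 3. All 3 libraries labelled knockout lay above every WT library, and the highest was the one whose Hspb6 level was near WT. Summed over the mice of a group and scaled to library size, 431 counts against 3 are a ratio of 204 (exact 95% interval 69.4 to 994, which covers counting error only). The mean level was 6.16 ± 3.16 CPM (SD, n = 3) in the libraries labelled knockout. Without the library labelled replicate 1 the fitted log2 change was 6.87 ± 0.63 (SE) against 7.36 ± 0.73 with it, and both depend on the small count that the fit adds to WT.

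Mcpt9 (gene ID 17232), a chymase best known from the uterus, lies on the minus strand at 56026864 to 56030495 of chromosome 14, inside the span of the RefSeq gene model of Mcpt2. In GENCODE M21 the exons of both genes share 0 bases. Mcpt9 stood at 0.0776, 0.0326 and 0.121 CPM in WT and at 1.26, 0.916 and 1.04 CPM in the knockout-labelled libraries replicates 1 to 3. The groups did not overlap, and the mean went from 0.0771 ± 0.0442 to 1.07 ± 0.177 CPM (SD, n = 3 each). The log2 change was 3.71 ± 0.43 (SE), or 3.55 ± 0.51 without the library labelled knockout replicate 1. At these levels 1 library counted at most 35 reads of Mcpt9, and a count of 0 would have allowed up to 3 counts, which is 0.0907 to 0.223 CPM depending on the library.

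The chymases of this cluster are copies of each other, so 1 stretch in which Mcpt2 and Mcpt9 are alike is shown with its counterparts. Among 60-base stretches that align without gaps in all the genes shown, none had fewer differences between Mcpt2 and Mcpt9. The stretch runs from base 19 to base 78 of the coding sequence of each of the first 4 genes and from base 61 to base 120 of Cma1. Capitals mark bases that differ from Mcpt2, in GENCODE M21 transcripts.
Mcpt2: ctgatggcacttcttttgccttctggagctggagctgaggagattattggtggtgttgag
Mcpt1: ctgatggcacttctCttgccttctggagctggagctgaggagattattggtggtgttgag
Mcpt4: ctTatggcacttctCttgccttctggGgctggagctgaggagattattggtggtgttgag
Mcpt9: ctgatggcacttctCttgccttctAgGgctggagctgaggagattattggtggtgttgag
Cma1: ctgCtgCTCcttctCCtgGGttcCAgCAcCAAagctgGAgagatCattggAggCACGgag
In this stretch Mcpt1 differed from Mcpt2 at 1 base, Mcpt4 and Mcpt9 at 3 and Cma1 at 23.

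Over their whole coding sequences, Mcpt2 was 81.3% identical to Mcpt1, 79.4% to Mcpt4, 77.6% to Mcpt9 and 61.3% to Cma1. The longest run of bases that the Mcpt2 transcript shared with any of these was 49, with Mcpt1. No stretch of 50 bases of Mcpt2 occurred in the annotated transcripts of Mcpt1, Mcpt4, Mcpt8, Mcpt9, Cma1 or Cma2. Mcpt9 is less distinct: its coding sequence was 98.1% identical to that of Cma2, a further chymase of the cluster, and 18.8% of its 50-base stretches also occurred there. Cma2 had 42, 46 and 66 counts in WT and 74, 29 and 12 in the libraries labelled knockout, with overlapping groups. Mcpt9 also shared 7 stretches of 50 bases with Mcpt4, which had 248 to 1012 counts per library. The sources used here give neither the read length nor the handling of reads with several matches, so the level of Mcpt9 is uncertain to the extent that it shares reads with Cma2 or Mcpt4.

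**Figure D1:**
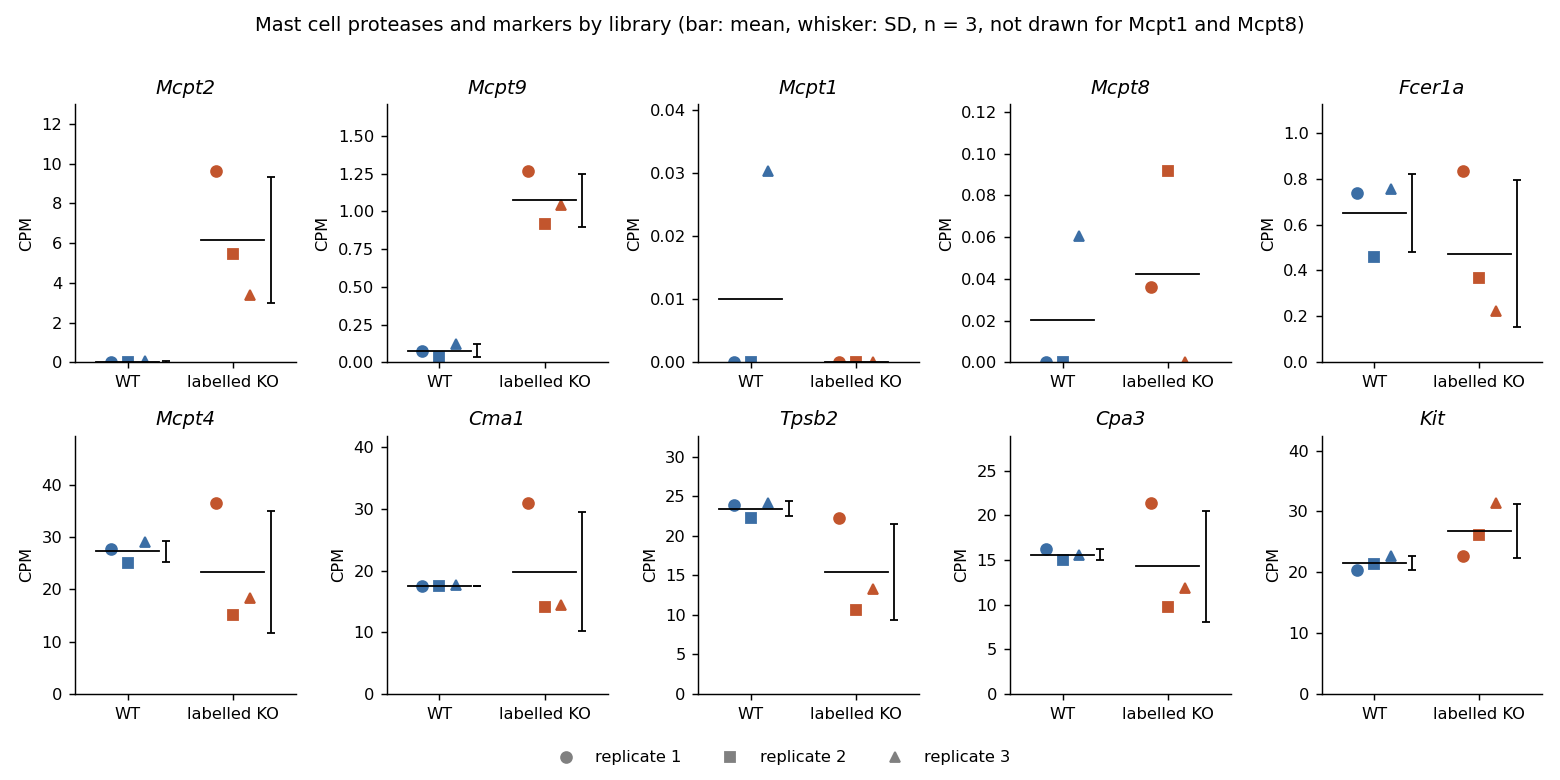
Level of each of the 10 genes in CPM (linear axes from 0, a separate scale per gene) in WT and in libraries labelled KO, with 1 point per mouse, a bar at the mean and the SD as a whisker. Mcpt2 and Mcpt9 are higher in all 3 libraries labelled KO, while Mcpt4, Cma1 and Cpa3 lie above WT in replicate 1 labelled KO and below it in replicates 2 and 3. For Tpsb2 replicate 1 labelled KO is level with the lowest WT library and replicates 2 and 3 are below WT.

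Mcpt1 (gene ID 17224, chromosome 14, 56017964 to 56020391) is the other mucosal chymase and lies next to Mcpt2. It had 1 count in WT replicate 3 and 0 counts in each of the other 5 libraries. Mcpt8 (gene ID 17231, chromosome 14, 56082163 to 56085499), the basophil protease, had 0, 0 and 2 counts in WT and 1, 2 and 0 in the libraries labelled knockout. Neither gene exceeded 3 counts in any library, so no fold change is given, and neither passed the filter on low counts. The other 8 members did pass it. Mcpt2 and Mcpt9 did so only through their counts in the libraries labelled knockout.

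Mcpt4 (gene ID 17227, chromosome 14, 56059744 to 56062310, minus strand) is the main chymase of connective tissue mast cells. It stood at 27.7, 25.1 and 29.0 CPM in WT and at 36.6, 15.02 and 18.4 CPM in the knockout-labelled libraries replicates 1 to 3. The library labelled replicate 1 was above all WT libraries and the other 2 were below them. The log2 change was -0.21 ± 0.30 (SE), and -0.71 ± 0.12 without the library labelled replicate 1.

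Cma1 (gene ID 17228, chromosome 14, 55941451 to 55944675, minus strand) encodes mast cell protease 5. Its 3 WT libraries lay close together at 17.5, 17.5 and 17.6 CPM, and those labelled knockout at 31.0, 14.1 and 14.5 CPM. The order of the libraries was that of Mcpt4 in one respect, with replicate 1 above WT and replicates 2 and 3 below it. The log2 change of Cma1 was 0.20 ± 0.29 (SE), and -0.30 ± 0.10 without the library labelled replicate 1, so that library set the sign.

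Cpa3 (gene ID 12873, chromosome 3, 20215616 to 20242209, minus strand), the granule carboxypeptidase, stood at 16.3, 15.01 and 15.5 CPM in WT. In the libraries labelled knockout it stood at 21.4, 9.71 and 11.8 CPM, again with replicate 1 above and replicates 2 and 3 below the WT libraries. Its log2 change was -0.11 ± 0.27 (SE), and -0.54 ± 0.13 without the library labelled replicate 1.

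Tpsb2 (gene ID 17229, chromosome 17, 25366308 to 25368096, plus strand) encodes the tryptase mast cell protease 6. Its WT values were 23.9, 22.3 and 24.2 CPM. The libraries labelled knockout had 22.3, 10.7 and 13.2 CPM. Replicate 1 only just overlapped with WT here, where it had exceeded WT for the other 3 granule proteases. The log2 change was -0.59 ± 0.24 (SE), and -0.98 ± 0.13 without the library labelled replicate 1.

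Kit (gene ID 16590, chromosome 5, 75574987 to 75656722, plus strand), which cells other than mast cells also express, stood at 20.4, 21.3 and 22.7 CPM in WT and at 22.6, 26.1 and 31.4 CPM in the knockout-labelled libraries. It was thus highest in replicates 2 and 3, the libraries in which the granule proteases were lowest. The groups overlapped by 1 library, and the log2 change was 0.31 ± 0.12 (SE), or 0.42 ± 0.11 without the library labelled replicate 1. Fcer1a (gene ID 14125, chromosome 1, 173221269 to 173227232, minus strand) was scarce, with 19, 14 and 25 counts in WT and 23, 8 and 3 in the libraries labelled knockout. Its log2 change of -0.33 ± 0.46 (SE) was smaller than its error, and was -1.06 ± 0.47 without the library labelled replicate 1.

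Of the 8 members tested, 2 were called, Mcpt2 and Mcpt9, both higher, at an adjusted p under 0.05 in edgeR's quasi-likelihood test over all genes. Of the 15994 genes tested in all, 7.65% were called, 4.23% higher and 3.42% lower. DESeq2 and limma-voom called the same 2 members. Because the list was built on this contrast, nothing is read from that count, nor from the same calls by DESeq2 and limma-voom. The groups did not overlap for these same 2 members, both higher, while 16.9% of all genes tested were higher without overlap and 15.6% lower. Without the library labelled knockout replicate 1, 5 of 8 members were called, Mcpt4, Cpa3 and Tpsb2 being lower. Of all genes 10.3% were then called, 5.82% higher and 4.52% lower. Nothing is read from these calls of members either, and the library left out was the one highest in Mcpt4 and Cpa3. The median log2 change of the 8 members was 0.04, beside 0.00061 over all genes tested, and fell to -0.42 without that library.

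Levels of different genes were compared per kilobase of exon. In WT, Mcpt4 led with 24.6 ± 1.79 CPM per kilobase, followed by Cma1 (16.1 ± 0.0628), Tpsb2 (14.7 ± 0.631), Cpa3 (10.8 ± 0.434), Kit (4.09 ± 0.223) and Fcer1a (0.651 ± 0.168; SD, n = 3 each). Each neighbour in this order was separated from the next in all 3 WT libraries. In the libraries labelled knockout Mcpt4 (21.1 ± 10.5) and Cma1 (18.2 ± 8.87) were still first, and Cpa3 (9.87 ± 4.30) and Tpsb2 (9.66 ± 3.84) did not differ beyond their spread. Mcpt2 reached 5.81 ± 2.98 CPM per kilobase there, a level next to that of Kit (5.09 ± 0.842) and not separable from it. Mcpt9, at 0.537 ± 0.0886, was in the range of Fcer1a (0.475 ± 0.319).

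The counts of the 8 protease genes were then split within each library, which removes differences in the total. That total was 80.0 to 86.6 CPM in WT and 122, 55.9 and 62.4 CPM in the knockout-labelled libraries replicates 1 to 3. Mcpt2 made up 7.87%, 9.75% and 5.48% of the protease counts of the libraries labelled knockout (Wilson 95% intervals 7.01 to 8.82, 8.21 to 11.5 and 4.13 to 7.23). In WT replicate 3 its share was 0.105% (0.0356 to 0.307), and in WT replicates 1 and 2 it was 0, which allows up to 3 counts. Mcpt9 made up 1.03%, 1.64% and 1.67% in the libraries labelled knockout and at most 0.140% in WT. The share of Tpsb2 was 28.0%, 27.9% and 27.9% in WT and 18.2%, 19.1% and 21.2% in the libraries labelled knockout, so that every library labelled knockout was below every WT library. The share of Cma1 was 20.5%, 21.9% and 20.3% in WT and 25.4%, 25.1% and 23.2% in the libraries labelled knockout. Shares of a total are tied to each other, since a gene that takes more leaves less for the rest.

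**Figure D2:**
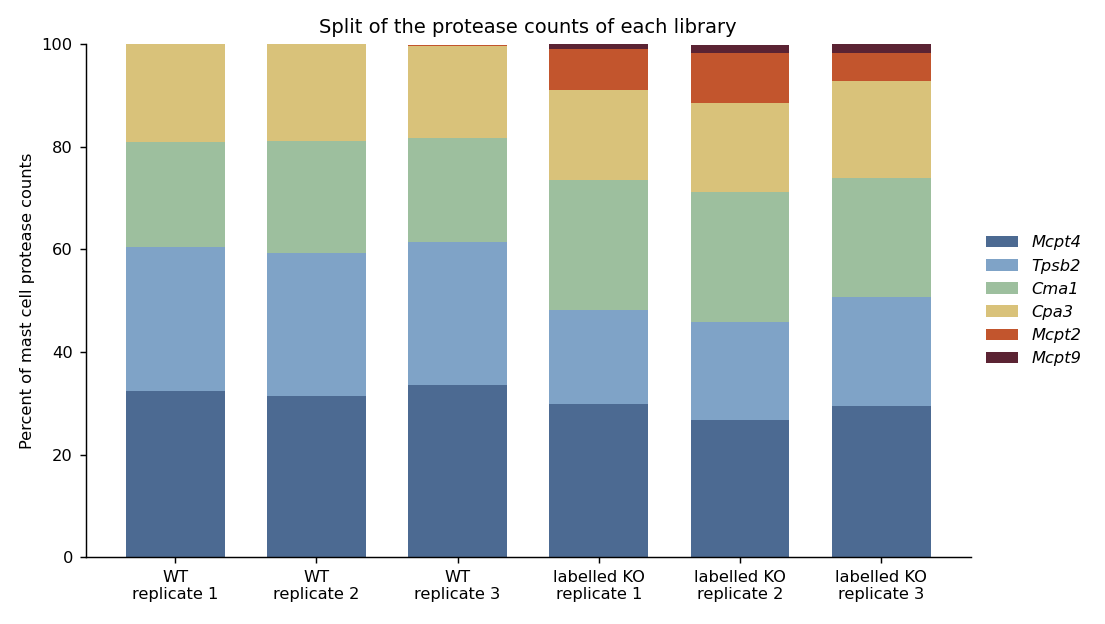
Percent of the mast cell protease counts of each library that fell on each gene (stacked bars from 0 to 100). Mcpt1 and Mcpt8 had at most 2 counts and are not drawn. Mcpt2 and Mcpt9 are visible only in the 3 libraries labelled KO, in which the Tpsb2 band is narrower, at 18.2% to 21.2% against 27.9% to 28.0% in WT.

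Counts per Cpa3 count give each gene relative to Cpa3, a mast cell product, in the same library. Tpsb2 had 1.47, 1.48 and 1.55 counts per Cpa3 count in WT and 1.04, 1.10 and 1.12 in the libraries labelled knockout, or 1.502 ± 0.0459 against 1.09 ± 0.0400 (SD, n = 3 each). The library labelled replicate 1, which had the most Cpa3 of all 6, fell with the other 2 libraries labelled knockout on this ratio. Cma1 had 1.07, 1.17 and 1.13 counts per Cpa3 count in WT and 1.45, 1.45 and 1.23 in the libraries labelled knockout, again with no overlap. Ratios to Cpa3 and shares were not computed for all genes, so how often they separate the groups is not known. Mcpt4 had 1.75 ± 0.105 in WT and 1.61 ± 0.0903 in the libraries labelled knockout, with overlapping groups. Mcpt2 had 0.449, 0.561 and 0.289 counts per Cpa3 count in the libraries labelled knockout, and Mcpt9 had 0.0591, 0.0943 and 0.0881. Kit did not keep a fixed ratio: it had 1.06 counts per Cpa3 count in the library labelled replicate 1 and 2.69 and 2.66 in replicates 2 and 3, against 1.26 to 1.46 in WT.

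**Figure D3:**
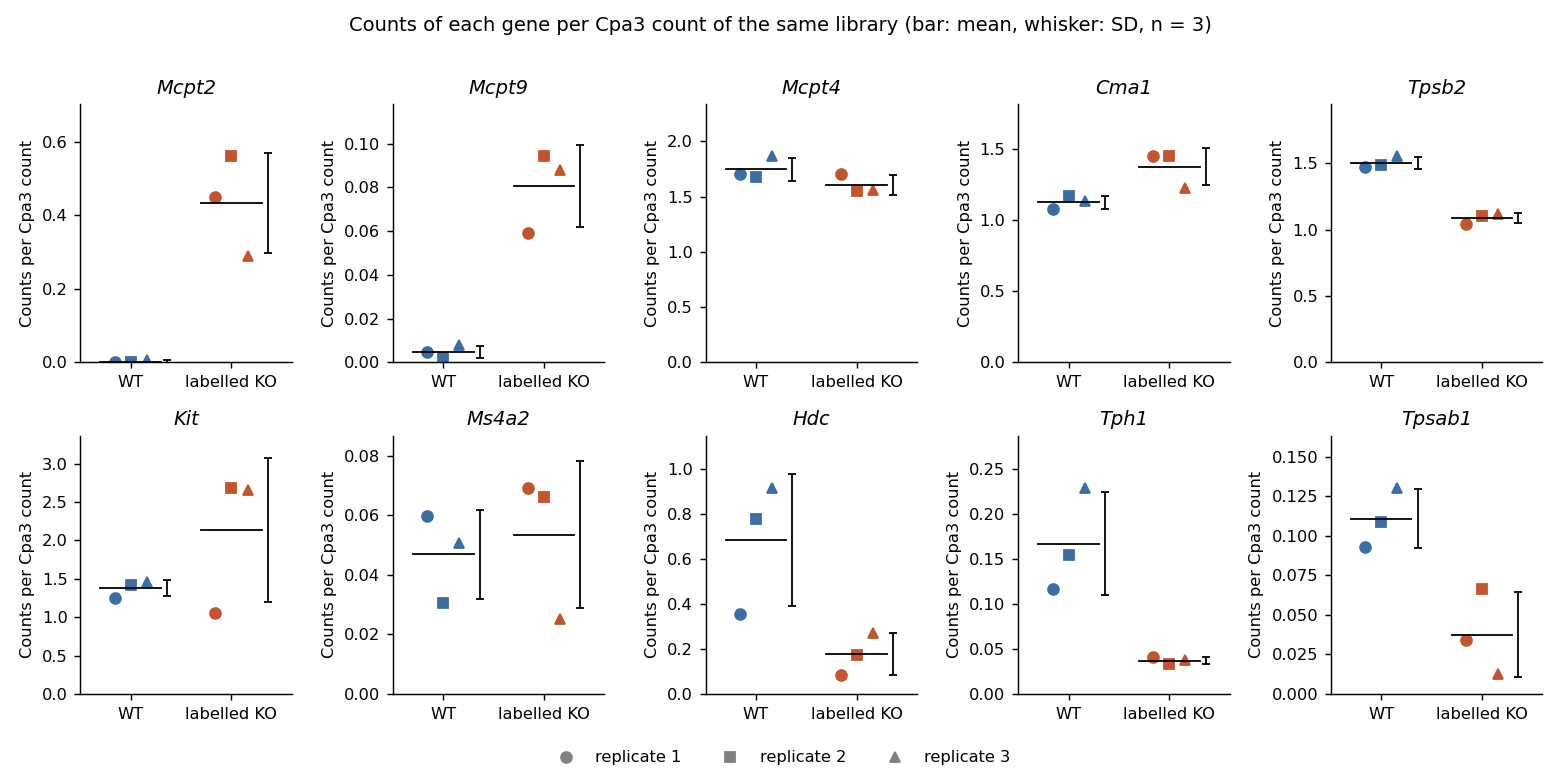
Counts of each gene divided by the Cpa3 counts of the same library (linear axes from 0, a separate scale per gene), with 1 point per mouse, the mean as a bar and the SD as a whisker. Tpsb2, Hdc, Tph1 and Tpsab1 are lower and Mcpt2, Mcpt9 and Cma1 higher in all 3 libraries labelled KO, while Mcpt4, Kit and Ms4a2 overlap with WT.

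Mcpt2 and Mcpt9 lie side by side in the chymase cluster of chromosome 14, which runs from Cma1 to Mcpt8 and on to the granzyme genes. Within 300 kb of the cluster, from 55641451 to 56385499, the table held 33 genes that are not members. Of these, 23 were tested, and 1 was higher and 2 were lower (edgeR quasi-likelihood test over all genes), where 7.65% of all genes tested were called. The median log2 change of the 23 was 0.03. Sdr39u1, a dehydrogenase-like gene, rose by 0.57 ± 0.13 on the log2 scale (edgeR adjusted p = 0.0417). Cbln3, a cerebellin gene, fell by 0.69 on the log2 scale (edgeR adjusted p = 0.0152), and Gzmb, the cytotoxic protease granzyme B, fell by 1.499 (edgeR adjusted p = 0.0414). Ctsg, cathepsin G, which mast cells and neutrophils carry in their granules, had 6, 4 and 10 counts in WT and 28, 10 and 2 in the libraries labelled knockout and was too low to test.

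**Figure D4:**
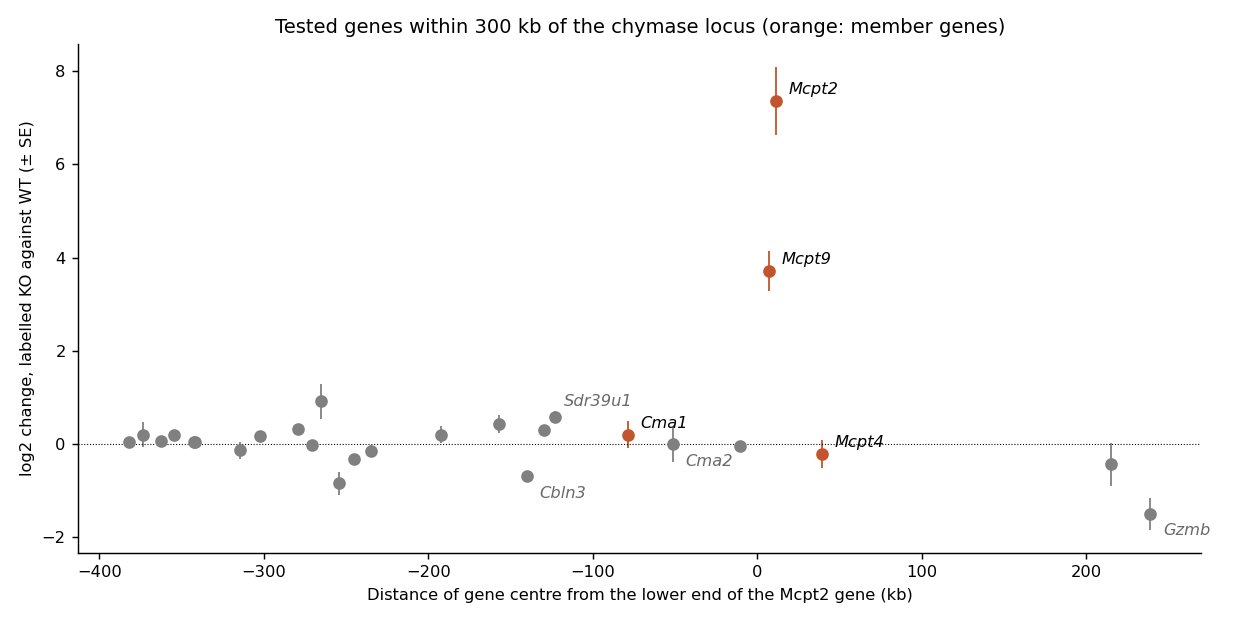
Log2 change (± SE) of each tested gene within 300 kb of the chymase cluster against the distance of its centre from the lower end of Mcpt2 in kb. Members are orange. Mcpt2 (7.36) and Mcpt9 (3.71) stand far above the other genes, while Cma1, Cma2 and Mcpt4 on either side of them lie near 0.

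The upstream sequences of 3 chymases are shown because they pair an unexpressed copy with an expressed one, and because Mcpt9 stands apart from both. They are the 250 bases before the start of each gene on its own strand, from RefSeq on GRCm38.p6, in which 8 of the 10 members had an entry. Capitals mark TGATAA or AGATAA on either strand, letters that GATA factors bind. The windows are chr14:56017714-56017963 (plus strand) for Mcpt1, chr14:56062311-56062560 (minus) for Mcpt4 and chr14:56030496-56030745 (minus) for Mcpt9.
Mcpt1: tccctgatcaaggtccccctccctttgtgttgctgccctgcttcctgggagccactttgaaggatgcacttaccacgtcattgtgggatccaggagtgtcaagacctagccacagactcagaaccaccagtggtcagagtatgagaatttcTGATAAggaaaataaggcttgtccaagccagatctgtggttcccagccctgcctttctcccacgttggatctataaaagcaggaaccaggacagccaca
Mcpt4: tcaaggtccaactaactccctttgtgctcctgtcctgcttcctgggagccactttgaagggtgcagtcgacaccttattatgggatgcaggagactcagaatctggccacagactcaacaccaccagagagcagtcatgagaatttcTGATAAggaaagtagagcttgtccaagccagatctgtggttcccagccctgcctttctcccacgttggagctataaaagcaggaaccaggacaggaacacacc
Mcpt9: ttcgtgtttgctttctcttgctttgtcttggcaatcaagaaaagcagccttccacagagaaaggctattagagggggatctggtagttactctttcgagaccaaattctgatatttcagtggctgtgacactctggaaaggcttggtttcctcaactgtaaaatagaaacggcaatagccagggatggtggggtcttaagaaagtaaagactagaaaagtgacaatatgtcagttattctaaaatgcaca

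The windows of Mcpt1 and Mcpt4 were 81.5% identical, and each held TGATAA and the TATA-like letters TATAAAA 1 time. Mcpt4 had the highest level of all members per kilobase and Mcpt1 had 1 count in all. The window of Mcpt9 was 46.8% identical to that of Mcpt1 and 45.0% to that of Mcpt4 and held neither set of letters. Of the other windows, those of Cpa3 and Fcer1a held AGATAA and those of Cma1, Mcpt8 and Kit held neither TGATAA nor AGATAA. By the gene spans given above, the window of Mcpt8 lies inside its gene, and those of Cpa3 and Fcer1a overlap theirs at the start. Among 27025 promoter windows of this length 17.0% held TGATAA or AGATAA. A match of letters describes the window only.

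Other mast cell genes, none of them members, were tested in the fit across all genes. Of 15 tested granule and mediator genes, 3 fell, Hdc, Tph1 and Tpsab1, and 0 rose (edgeR, 0 higher at an unadjusted p under 0.05; 0 by DESeq2 or limma-voom). Of all genes tested 3.42% fell. The median log2 change of the 15 was -0.27.

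Hdc, which makes histamine from histidine, stood at 5.78, 11.7 and 14.3 CPM in WT replicates 1 to 3 and at 1.84, 1.69 and 3.19 CPM in the libraries labelled knockout, with no overlap. It fell by 2.29 ± 0.38 (SE) on the log2 scale (edgeR adjusted p = 0.0177). Tph1, which makes the first step of serotonin synthesis, stood at 1.90, 2.32 and 3.57 CPM in WT and at 0.868, 0.321 and 0.446 CPM in the knockout-labelled libraries. It fell by 2.18 ± 0.40 (edgeR adjusted p = 0.0240). Tpsab1, the other tryptase of the granules, had 39, 50 and 67 counts in WT and 20, 14 and 2 in the libraries labelled knockout, and fell by 1.64 ± 0.39 (edgeR adjusted p = 0.0460). The Tpsab1 transcript and the Tpsb2 transcript compared here, 1 per gene, shared no run longer than 39 bases.

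Ratios of these 3 genes to Cpa3, whose log2 change was -0.11, use the same counts and give no separate support for the falls. Hdc had 0.356 to 0.918 counts per Cpa3 count in WT and 0.0861 to 0.270 in the libraries labelled knockout. Tph1 had 0.117 to 0.230 against 0.0330 to 0.0405, and Tpsab1 0.0931 to 0.130 against 0.0126 to 0.0660. Which cells carried Hdc and Tph1 was not tested, so their ratios to Cpa3 need not describe mast cells alone. The calls depended on single libraries. Left out in turn, the library labelled knockout replicate 1 left 3 calls, WT replicate 1 left 2, the library labelled replicate 3 left 1 (Hdc), and WT replicate 2, WT replicate 3 or the library labelled replicate 2 left 0 (edgeR, with 3, 3 and 5 lower at an unadjusted p under 0.05). DESeq2 called 3 and limma-voom 2. The remaining granule genes were not called in the main test. Srgn, the core protein that carries heparin in the granule, had a log2 change of -0.27 ± 0.16. Slc18a2, the carrier that loads amines into vesicles, had one of -0.34 ± 0.19. Larger changes went both ways, among them Rab27b (-0.48 ± 0.28), Alox5 (-0.39 ± 0.16, edgeR unadjusted p = 0.0424) and Ltc4s (0.43 ± 0.22). Of the 15 tested genes of the list, 3 had positive log2 changes.

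**Figure D5:**
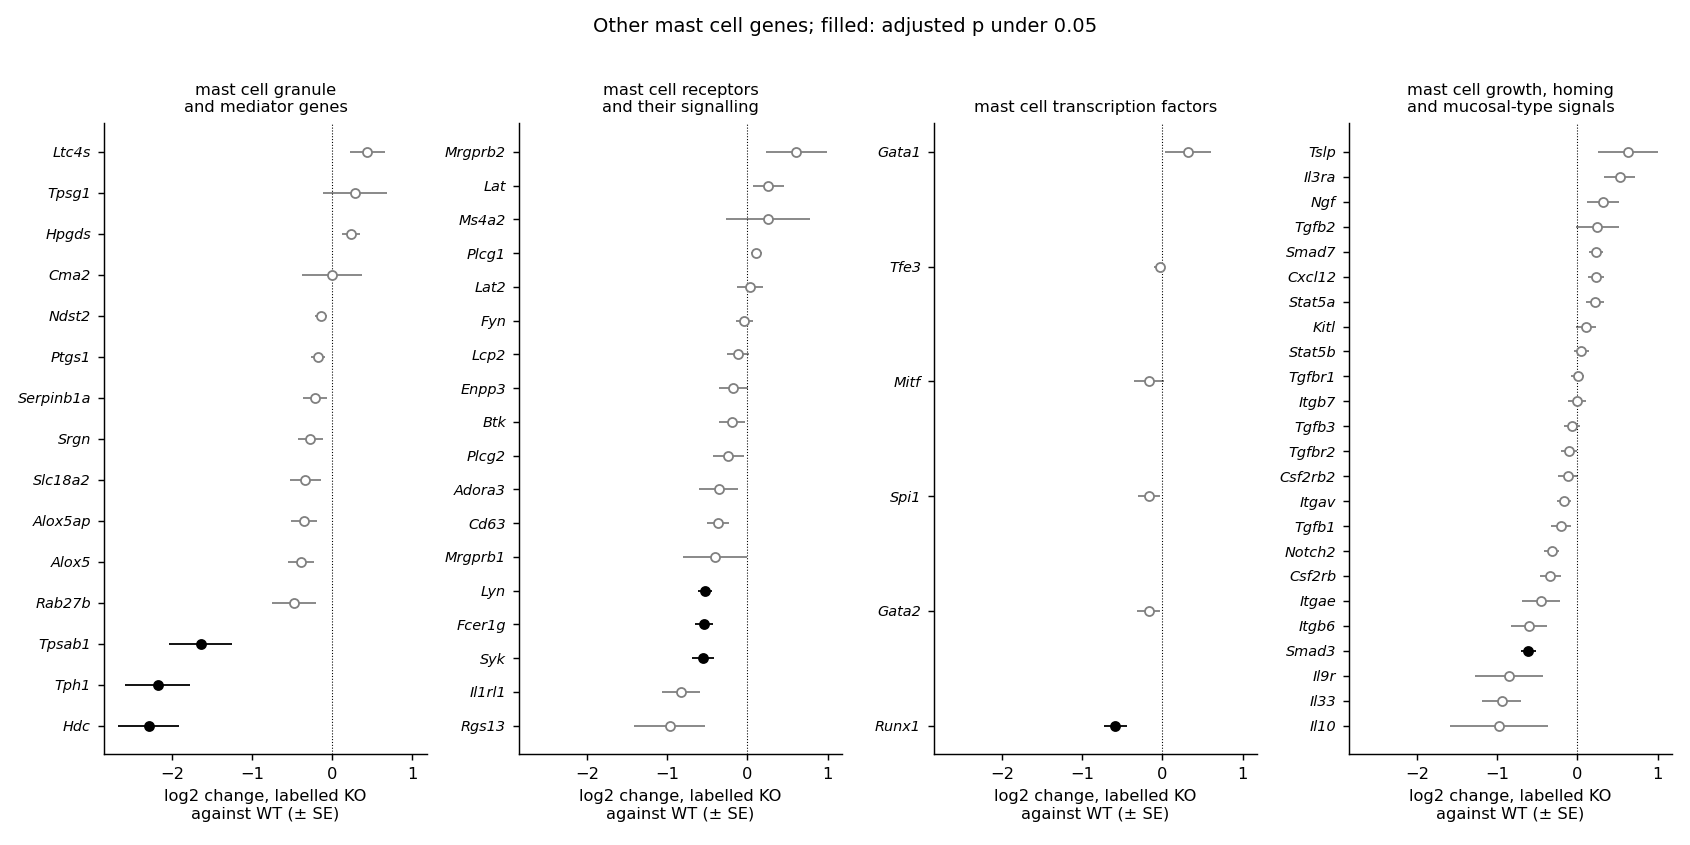
Log2 change of libraries labelled KO against WT (± SE) for each tested gene of 4 lists of other mast cell genes, with filled points at an edgeR adjusted p under 0.05. The filled points, 3, 3, 1 and 1 in the 4 panels, all lie below 0, with Hdc, Tph1 and Tpsab1 farthest from it.

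Of 18 genes of mast cell receptors and their signalling, 3 fell and 0 rose, where 3.42% of all genes tested fell. At an unadjusted p under 0.05 edgeR had 0 higher, and DESeq2 and limma-voom called 0 higher. The median log2 change was -0.21. The 3 that fell were Lyn and Syk, kinases that act just below the IgE receptor, and Fcer1g, the gamma chain that this receptor shares with other Fc receptors. All 3 are also expressed by macrophages and other leukocytes. Lyn fell from 104 ± 5.68 to 72.3 ± 5.08 CPM (edgeR adjusted p = 0.0151), Fcer1g from 37.7 ± 4.71 to 25.8 ± 1.803 CPM (0.0309) and Syk from 198 ± 15.01 to 135 ± 24.8 CPM (0.0498; SD, n = 3 each).

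Ms4a2, the beta chain of the IgE receptor, had 25, 14 and 26 counts in WT and 41, 14 and 4 in the libraries labelled knockout. The mast cell receptors Mrgprb1 and Mrgprb2 had log2 changes of -0.41 ± 0.40 and 0.61 ± 0.38, and Il1rl1, the receptor for interleukin 33, one of -0.83 ± 0.23 (edgeR adjusted p = 0.0721, range over alternatives 0.00956 to 0.229). DESeq2 called Il1rl1 lower, beside Lyn, Fcer1g and Syk. Without WT replicate 2 or 3 the test called 0 of these 18 genes (edgeR, with 4 lower at an unadjusted p under 0.05 in each case), without the library labelled knockout replicate 3 it called 1, and without WT replicate 1, 2. Without the library labelled replicate 1 it called 3, Syk being replaced by Cd63 (edgeR adjusted p of Syk 0.0872, range over alternatives 0.00339 to 0.177). Without the one labelled replicate 2 it called 4, and Fcer1g was not among them (edgeR adjusted p = 0.0748, range over alternatives 0.00134 to 0.120).

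Among 6 transcription factors of mast cells, Runx1, a regulator of blood cell formation, fell by 0.59 ± 0.14 on the log2 scale (edgeR adjusted p = 0.0496), and the list's median was -0.17. That call was lost when any single library was left out (edgeR adjusted p from 0.0535 to 0.120, and from 0.00638 over all alternatives). Gata2 and Mitf, on which mast cell identity depends, had log2 changes of -0.17 ± 0.14 and -0.17 ± 0.19 (edgeR adjusted p = 0.490 and 0.628).

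Of 24 tested growth factors, homing signals and signals linked to the mucosal type, 1 fell and 0 rose, where 3.42% of all genes tested fell. That count is near this share. At an unadjusted p under 0.05 edgeR had 3 higher, and DESeq2 and limma-voom called 0 higher. The median log2 change was -0.09. Smad3, which carries TGF-beta signals to the nucleus, fell from 54.5 ± 3.62 to 35.7 ± 3.02 CPM (SD, n = 3 each; edgeR adjusted p = 0.0131). Without WT replicate 2 that edgeR adjusted p was 0.0672, and over all alternatives it ran from 4.43e-06 to 0.0672. Il33, an alarmin that activates mast cells, stood at 36.1 ± 12.0 CPM in WT and 18.7 ± 1.85 CPM in the knockout-labelled libraries (edgeR adjusted p = 0.0554), and it was called by DESeq2, without the filter on low counts and without WT replicate 1. Kitl, the stem cell factor that binds Kit, had a log2 change of 0.11 ± 0.12, Tgfb1 of -0.20 ± 0.12 and Itgae, an integrin chain of mucosal mast cells, of -0.45 ± 0.24 (edgeR adjusted p = 0.625, 0.327 and 0.279). The mast cell cytokines Il3 and Il9 had 0 counts in all 6 libraries.

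Markers of other cells that could carry these transcripts were read in the same way, and their part in the results above was not tested. Of 40 tested marker genes in 9 lists, 5 fell and 0 rose, where 3.42% of all genes tested fell. At an unadjusted p under 0.05 edgeR had 2 higher, and DESeq2 and limma-voom called 0 higher. With 1 library left out the test called 0 marker genes when WT replicate 3 was omitted and up to 8, when the library labelled knockout replicate 1 was. Basophil markers were scarce: Prss34, a basophil protease, had 6, 12 and 4 counts in WT and 1, 0 and 1 in the libraries labelled knockout, and Il4 had 8 at most. The summed basophil list ran from 16.5 to 18.5 CPM in WT and from 17.4 to 27.3 CPM in the knockout-labelled libraries, most of it Il3ra, a receptor chain with a log2 change of 0.53 ± 0.19. Neither Il3ra nor Itga2 (-0.30 ± 0.28), the 2 tested genes of the list, was called, but Il3ra was called higher without the library labelled replicate 2. The eosinophil list ran from 17.4 to 20.95 CPM in WT and from 13.8 to 14.7 CPM in the knockout-labelled libraries, with 0 of 6 called (edgeR, 0 at an unadjusted p under 0.05; 0 by DESeq2). Its smallest p-values were those of Ear2 (log2 change -0.59 ± 0.30) and Prg2 (-0.67 ± 0.34), both granule proteins.

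Of 8 cytotoxic lymphocyte genes 3 fell, Gzmb, Nkg7 and Klrb1c, where 3.42% of all genes tested fell. The other 5 had positive log2 changes, the highest being 0.75 ± 0.32 for Ncr1 and 0.40 ± 0.20 for Cd3e. The test called 0 of the 8 without WT replicate 2, WT replicate 3 or the library labelled replicate 2 (edgeR, 3 lower at an unadjusted p under 0.05 in each case). Without the library labelled replicate 3 it called Ncr1 and Cd3e higher and Klrb1c lower. The summed list ran from 130 to 157 CPM in WT and from 122 to 184 in the libraries labelled knockout. Of 4 neutrophil genes 1 fell in edgeR, the chemokine receptor Cxcr2, and 3 in DESeq2, which added S100a8 and S100a9. The summed neutrophil list ran from 52.1 to 53.6 CPM in WT and from 29.9 to 34.6 CPM in the knockout-labelled libraries, most of it Cxcr2. Macrophage markers summed to 1258 to 1409 CPM in WT and 1042 to 1342 CPM in the knockout-labelled libraries, with 0 of 6 called (edgeR, 3 at an unadjusted p under 0.05; 2 by DESeq2) and 3 of 6 called lower without the library labelled replicate 1. The macrophage genes with the smallest p were the scavenger receptor Cd163 (log2 change -0.72 ± 0.21) and Adgre1 (-0.55 ± 0.19). Type 2 innate lymphoid genes summed to 58.2 to 73.9 CPM in WT and 50.1 to 59.6 CPM in the knockout-labelled libraries, with the smallest p-values at Il17rb (log2 change -0.61 ± 0.17) and Rora (-0.22 ± 0.15; 0 of 4 called, 1 at an unadjusted p under 0.05 in edgeR, and Il17rb by DESeq2).

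Melanocytes also depend on Kit and Mitf. Of their 4 tested markers Tyr fell (16.8 ± 0.491 to 12.4 ± 0.290 CPM, SD, n = 3 each; edgeR adjusted p = 0.0294), and Dct, Pmel and Mlana had log2 changes of 0.06 ± 0.36, 0.01 ± 0.14 and 0.68 ± 0.40. The call of Tyr held without the library labelled replicate 1 (edgeR adjusted p = 0.0464) and was lost without any other single library (0.0598 to 0.125). Mostly made up of Tyr, the list had a sum of 26.1 to 27.3 CPM in WT and 21.7 to 23.1 in the libraries labelled knockout. Skin is rich in connective tissue mast cells, but the list used here covers its epidermis only, so other layers of skin were not read. The epidermal list summed to 1.76 to 3.39 CPM in WT and 2.68 to 3.19 CPM in the knockout-labelled libraries. Krt10 (log2 change 0.22 ± 0.27) was its only tested gene and made up most of the sum. The list of simple and mammary epithelium summed to 6.63 to 8.13 CPM and 4.17 to 8.64 CPM, with Wap at 0 counts in every library. For both of these lists 0 genes were called (edgeR, 0 at an unadjusted p under 0.05; 0 by DESeq2). Epcam (-0.42 ± 0.26) and Krt19 (-0.81 ± 0.50) were the nearest, and Krt19 was called lower without the library labelled replicate 1.

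The genes whose log2 CPM ran most closely with Mcpt2 over the 6 libraries, among 14675 genes with a mean of at least 1 CPM, were Ifrd2, Brd9, 1700001O22Rik, Cd200 and Tmem181c-ps (Pearson correlation from 0.991 to 0.997). All 5 were higher in every library labelled knockout than in any WT library. The ranking favours such genes because Mcpt2 itself separates the groups, and 16.9% of all genes tested were higher without overlap. Those closest to Cpa3 were Adamts14, Sirpa, Gas6, Antxr1 and Tnfsf12 (0.987 to 0.998), which were highest in the library labelled knockout replicate 1 and lowest in replicate 2. These points share the 2 groups and the same 6 libraries, so the values only rank the genes.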

How the data were processed

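RNA of inguinal white adipose tissue was sequenced from 6 mice, 3 per group. The table the authors deposited holds raw counts of reads per gene, which are whole numbers with no normalization. Per the submitters' processing notes, bcl2fastq, TopHat, DESeq and CASAVA 1.8 were used, with builds GRCm38 and mm10. The sources used here do not give the counter, the annotation or the use of strand, so overlapping genes may share reads. Of 24415 gene IDs, 24334 matched a symbol in a RefSeq table of GRCm38.p6.

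Genes were filtered with filterByExpr (minimum count 10, minimum total 15), scaled by TMM and tested in edgeR 4.0.16 (R 4.3.3) with the quasi-likelihood F test on genotype, with Benjamini-Hochberg adjustment over 15994 genes and a threshold of 0.05. The SE is the log2 change divided by the square root of F. CPM uses TMM-scaled library sizes, and log2 CPM a prior count of 2. Exon lengths are unions over protein-coding transcripts of GENCODE M21, and alignments used Biopython 1.88. The alternatives were leaving out each library, a replicate block, no filter, scaling by DESeq2 size factors or by upper quartile, DESeq2 1.42.0 and limma-voom (limma 3.58.1). The test was also run on simulated counts with a common dispersion for all genes. That run does not cover genes or libraries whose spread differs. Named genes were all members, list genes that passed or else had the smallest p, neighbours that passed, and the 5 genes closest to Mcpt2 and to Cpa3. Other list genes (Srgn, Slc18a2, Rab27b, Alox5, Ltc4s, Ms4a2, Mrgprb1, Mrgprb2, Gata2, Mitf, Kitl, Tgfb1, Itgae, Il1rl1, Il33, Cd63, Ctsg, Cma2, Prss34, Il4, Il3, Il9, Wap, Ncr1, Cd3e, S100a8, S100a9, Dct, Pmel and Mlana) were named after their values were seen. The members and lists were chosen with earlier results of these data known. The labels do not say how the mice were bred or housed by group, so p-values measure the spread between these mice only.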

Additional observations from a re-analysis of the deposited data

How the results depend on the processing

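Mcpt4, Cpa3 and Tpsb2 passed only in the setting that omits the library labelled knockout replicate 1, and nothing is read from those calls. In that setting the log2 changes of Mcpt4, Cma1, Cpa3 and Fcer1a moved by more than the spread between mice, as did that of Mcpt2 without WT replicate 3, the only WT library with a count (10.2), and that of Mcpt9 without WT replicate 2 or 3. The calls of Mcpt2 and Mcpt9, which entered the test only through the libraries labelled knockout, say nothing of stability. The median log2 change of the members ran from -0.42 to 0.22 with 1 library left out. With 1 library left out the test called between 128 and 1671 genes of the table, 0 to 3 granule and mediator genes, 0 to 4 receptor and signalling genes, 0 transcription factors, 0 to 2 growth and homing genes and 0 to 8 markers of other cells, against 1223, 3, 3, 1, 1 and 5 with all libraries. DESeq2 called 2159 genes of the table, 3 growth and homing genes and 10 markers of other cells. Without the filter 2 growth and homing genes were called. Runx1 was the only transcription factor called, and with upper quartile normalization or limma-voom 0 were (1 at an unadjusted p under 0.05 in each). The causes were not tested.

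Same-numbered mice had correlations of their deviations of -0.038, 0.0917 and -0.0957, and differently numbered mice of -0.084 to 0.12. With so few mice these values cannot show whether the numbers pair the samples. With the replicate block 395 genes of the table were called, with 1 granule, 1 receptor, 0 transcription factor, 0 growth and homing and 1 marker gene (edgeR, with 4, 4, 1, 6 and 14 at an unadjusted p under 0.05). The smallest library, of 14078936 counts, limits what can be said of Fcer1a, Ms4a2 and Tpsab1, which had 3, 4 and 2 counts there.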
